A study of Homo sapiens with 12 samples.

Results

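The 10 genes that encode heat shock chaperones of the cytosol and of mitochondria were followed in polysome-associated RNA from 3 triple-negative breast cancer cell lines. They were chosen by symbol: the mitochondrial chaperonin HSPD1 with its co-chaperonin HSPE1, the mitochondrial HSP70 HSPA9, the mitochondrial HSP90 TRAP1, the cytosolic HSP70 genes HSPA8, HSPA1A and HSPA1B, the cytosolic HSP90 genes HSP90AA1 and HSP90AB1, and the J-domain protein DNAJB1. The rule names symbols and uses no measured value of these libraries, although the members were chosen with earlier results of these data known. They were 10 of the 24559 gene symbols to which the deposited transcripts could be matched, and all 10 were among the 16538 genes that passed the filter on low counts.

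The series sequenced RNA recovered from pooled polysome fractions of sucrose gradients, after cycloheximide had been given to hold ribosomes on their transcripts. In MDA-MB-231 and SUM159 cells, TRMT112, an activator subunit shared by several methyltransferases, was lowered with a GIPZ short hairpin RNA (KD), and the controls carried a GIPZ non-silencing hairpin and are labelled EV. In BT549 cells TRMT112 was expressed from an added open reading frame (OE), and the controls carried the empty pReceiver-M02 vector, again labelled EV. Each of the 6 groups held 2 libraries. The KD lines and their controls were under puromycin and the BT549 cells under G418, and the media differed between lines: DMEM/F-12 for MDA-MB-231, DMEM/F-12 with insulin and hydrocortisone for SUM159 and RPMI for BT549. Differences between lines therefore cannot be told apart from differences of medium, vector and selection. The labels do not say that the 2 libraries of a group came from separate cultures, so each p-value measures only the spread between these libraries. In bulk RNA, fewer cells that express a gene cannot be told apart from less RNA per cell, and with no total RNA measured here, more ribosome loading cannot be told apart from more transcript. The paper reports smaller polysome peaks with KD and larger ones with OE. Counts here are relative to the polysome RNA that was sequenced. A gene said to fall or rise therefore changed relative to that RNA, and amounts per cell were not measured.

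The libraries held between 22954226 and 27434677 counts. TRMT112, the targeted gene, followed the labels. Its normalized counts, scaled for depth and composition by the trimmed mean of M-values (TMM), were 4147 and 3938 in MDA-MB-231 EV and 1764 and 1682 in KD, 6332 and 6566 in SUM159 EV and 3909 and 3699 in KD, and 3076 and 3087 in BT549 EV and 4286 and 4319 in OE. VIM, a mesenchymal marker, was present in all 12 libraries, at 16821 to 47473 normalized counts, and fell in BT549 from 47330.5 and 47473 in EV to 17450.5 and 16821 in OE. The epithelial keratin KRT8 had at least 4910.1 normalized counts in every MDA-MB-231 and SUM159 library and at most 17.7 in BT549. KRT18 had at least 4374.6 and at most 6.6. Other epithelial markers did not follow. CDH1 had means of 1.8, 0 and 57.2 in MDA-MB-231, SUM159 and BT549 EV, and EPCAM 70.9, 2.5 and 0.55. ERBB2, a receptor taken as low in triple-negative lines, had 1385 to 3420 normalized counts. In BT549 its mean was 3360 in EV and 1707 in OE. PTPRC, PECAM1 and ALB, markers of leukocytes, endothelium and liver, reached at most 102.9, a value of PECAM1 in SUM159 KD, where its EV libraries had 24.2 and 25.1 and its KD libraries 88.7 and 102.9. In the same comparison the basal keratin KRT14 had 166.5 and 166.9 in EV and 0 in both KD libraries, and KRT8 had 4910.1 and 4944 in EV and 8311 and 8738 in KD. KRT18 did not rise there, with 4731 and 5134 in EV and 4655 and 4375 in KD. The part of these differences in the results that follow was not tested.

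Chaperones bind unfolded or partly folded proteins and release them in cycles of ATP binding and hydrolysis. HSP70 proteins are loaded by J-domain partners and reset by exchange factors, HSP90 proteins act later on signalling proteins and receptors with the help of co-chaperones, and the mitochondrial chaperonin encloses substrates in a barrel closed by its co-chaperonin lid. The inducible members are switched on by the heat shock factor HSF1, which binds repeats of GAA and its complement TTC upstream of its targets, whereas HSPA8 and HSP90AB1 are made in large amounts in unstressed cells.

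HSPD1 (ENSG00000144381) lies at chr2:197486584-197516737 on the minus strand of GRCh38, in GENCODE release 44, and HSPE1 (ENSG00000115541) at chr2:197500140-197503449 on the plus strand. Their most abundant transcripts, HSPD1-202 and HSPE1-201, run away from each other from start sites that leave 538 bases between them. HSPA9 lies at chr5:138553756-138575675, TRAP1 at chr16:3651639-3717553, HSPA8 at chr11:123057489-123063230, HSP90AA1 at chr14:102080742-102139699 and DNAJB1 at chr19:14514769-14560391, all on the minus strand. HSPA1A at chr6:31815543-31817946 and HSPA1B at chr6:31827738-31830254 are neighbours on the plus strand, with start sites 12195 bases apart, and HSP90AB1 lies at chr6:44246166-44253888. The RefSeq promoter table (GRCh38.p14) had an entry for all 10 genes, and the 250 bases before the start site of the most abundant transcript were searched for GAANNTTC and TTCNNGAA, each of which is its own reverse complement and so reads alike on both strands. Over all 35116 windows of that length, 11.6% held at least 1 of these pairs of units, and 0.441% held 3 units in a row (GAANNTTCNNGAA or TTCNNGAANNTTC, reverse complements of each other that contain the shorter motifs). The windows of the 6 members that held a match are shown, with the matched letters in capitals, because they show how differently the HSF1-type units are arranged in these genes.
HSPD1, chr2:197499841-197500090, minus strand: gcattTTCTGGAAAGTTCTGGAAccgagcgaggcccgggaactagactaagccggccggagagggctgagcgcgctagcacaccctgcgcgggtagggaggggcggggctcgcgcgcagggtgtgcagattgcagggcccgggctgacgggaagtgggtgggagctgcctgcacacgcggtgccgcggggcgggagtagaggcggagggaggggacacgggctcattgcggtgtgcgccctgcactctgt
HSPA8, chr11:123062137-123062386, minus strand: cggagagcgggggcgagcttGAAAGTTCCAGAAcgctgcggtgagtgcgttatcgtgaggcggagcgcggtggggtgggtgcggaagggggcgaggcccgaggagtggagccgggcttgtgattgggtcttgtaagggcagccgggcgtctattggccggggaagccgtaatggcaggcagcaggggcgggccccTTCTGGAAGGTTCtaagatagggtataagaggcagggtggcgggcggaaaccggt
HSP90AA1, chr14:102087045-102087294, minus strand: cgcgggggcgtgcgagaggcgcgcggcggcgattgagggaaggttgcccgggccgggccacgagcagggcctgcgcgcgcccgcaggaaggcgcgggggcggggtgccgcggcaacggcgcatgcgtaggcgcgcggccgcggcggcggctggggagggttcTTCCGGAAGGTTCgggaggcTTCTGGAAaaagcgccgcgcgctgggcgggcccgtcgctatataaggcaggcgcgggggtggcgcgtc
HSPA1A, chr6:31815293-31815542, plus strand: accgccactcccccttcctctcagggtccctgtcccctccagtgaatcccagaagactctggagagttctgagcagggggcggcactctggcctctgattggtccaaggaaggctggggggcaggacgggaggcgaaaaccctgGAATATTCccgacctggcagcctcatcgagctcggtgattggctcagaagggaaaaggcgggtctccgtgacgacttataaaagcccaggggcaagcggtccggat
HSPA1B, chr6:31827488-31827737, plus strand: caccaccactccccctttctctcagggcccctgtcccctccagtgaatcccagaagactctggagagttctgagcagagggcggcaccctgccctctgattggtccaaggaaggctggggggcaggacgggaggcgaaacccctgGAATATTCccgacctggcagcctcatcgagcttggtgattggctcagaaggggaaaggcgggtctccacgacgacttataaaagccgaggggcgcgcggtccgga
DNAJB1, chr19:14518398-14518647, minus strand: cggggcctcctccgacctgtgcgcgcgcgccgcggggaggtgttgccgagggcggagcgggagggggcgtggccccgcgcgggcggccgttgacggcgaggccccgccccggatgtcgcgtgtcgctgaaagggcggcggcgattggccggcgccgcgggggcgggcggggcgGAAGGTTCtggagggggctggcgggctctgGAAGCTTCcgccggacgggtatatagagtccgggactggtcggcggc

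HSPD1 held an unbroken run of units from position -245 to -228 relative to its start, while HSPE1, which faces it across the shared upstream region, held none in its own window. HSPA8 held 2 runs of 3 units, from -230 to -218 and from -55 to -43. HSP90AA1 held 1 such run, from -88 to -76, and a further pair from -68 to -61. HSPA1A and HSPA1B shared the same single pair at almost the same place, from -106 to -99 and from -105 to -98, and their windows were 94.4% identical over 249 aligned bases. DNAJB1 held 2 pairs, from -77 to -70 and from -47 to -40. HSPA9, TRAP1 and HSP90AB1 held no match in the window of their main transcript, although 1 of the 3 windows listed for HSP90AB1, for a start at 44247943, did. For HSPA9 the nearest listed start was 30 bases from that of the main transcript. A match describes letters in these windows, not a bound site, and a window without one says nothing about the factor.

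HSPA1A and HSPA1B are near-identical copies. Their coding sequences were 99.8% identical over 1923 bases, and 69.6% of all 150-base stretches of HSPA1A-201 occurred unchanged in HSPA1B-201, 150 bases being the read length. A read from those stretches cannot be placed by its own letters. The paper's methods give paired-end reads, so a mate outside a shared stretch could place some of them, and how many was not measured. The values of each copy are therefore uncertain, and the sum of both is given beside them. No 150-base stretch was shared between HSP90AA1 and HSP90AB1, with 76.1% identity of their coding sequences, or between HSPA8 and HSPA1A, with 74.1%.

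**Figure D1:**
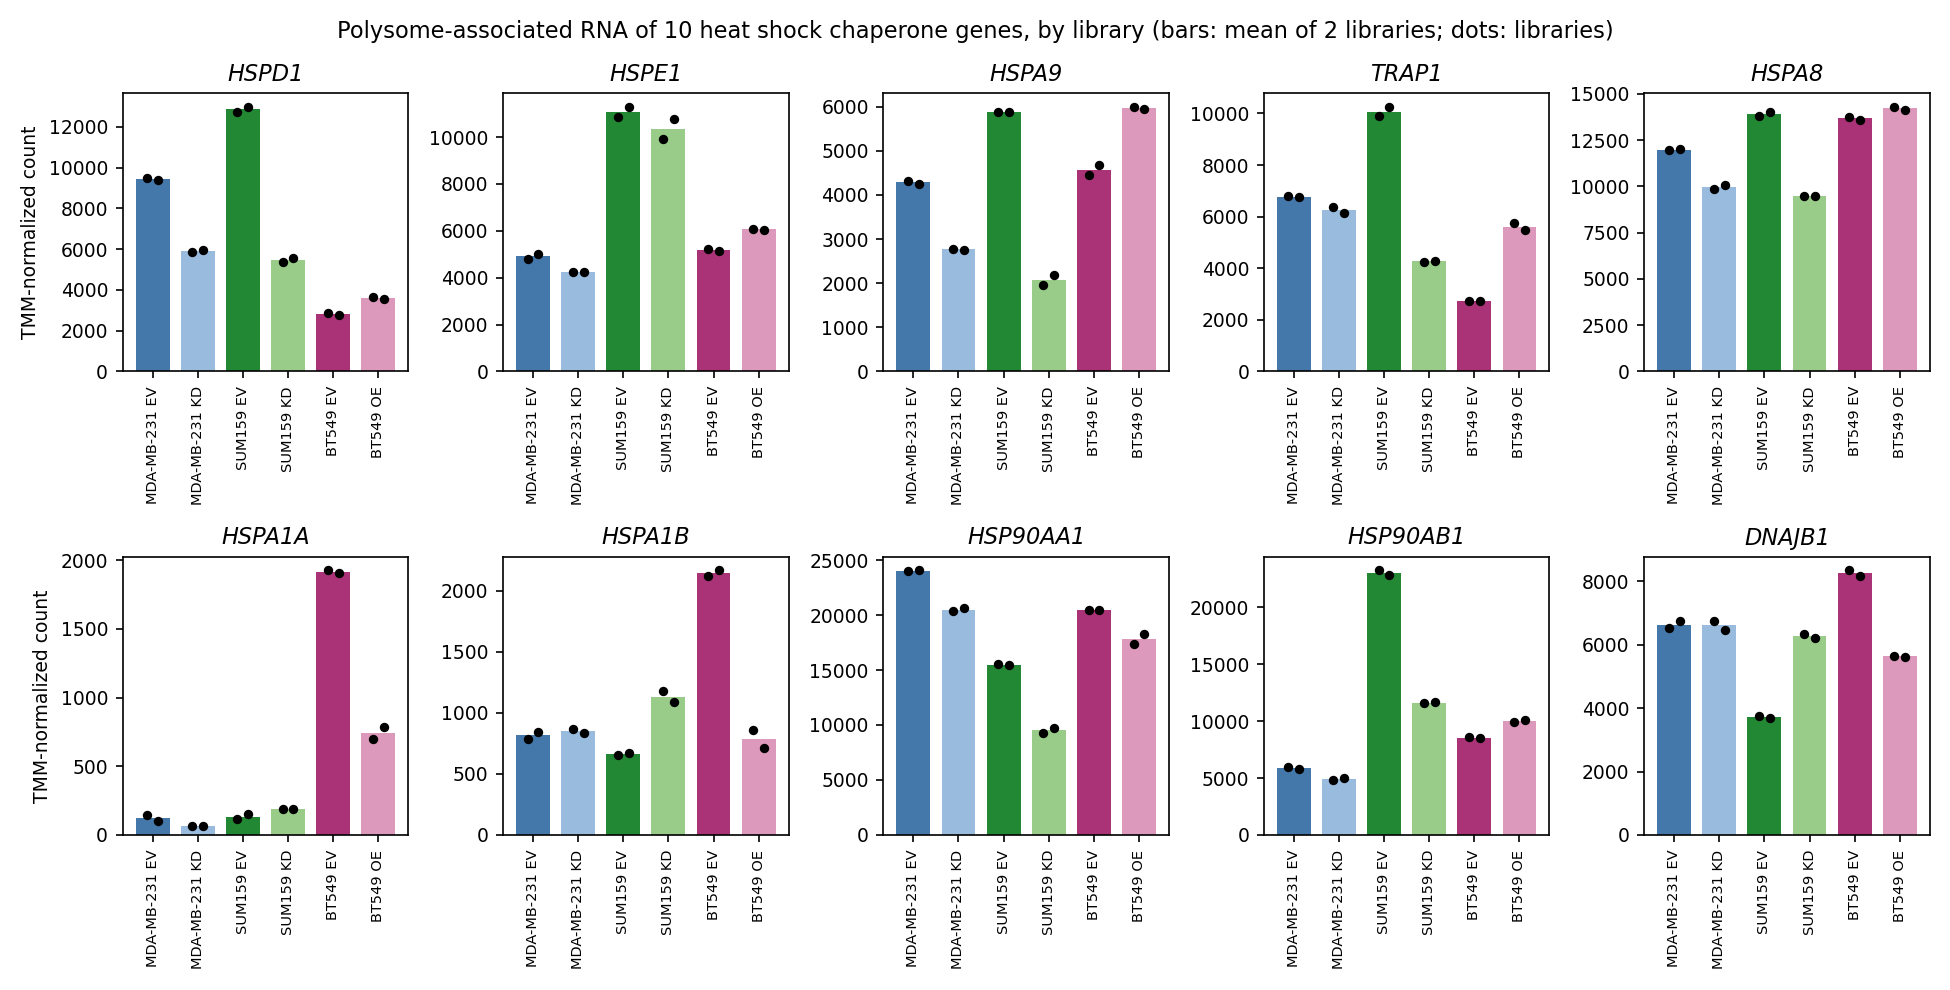
TMM-normalized counts (vertical axes, from 0) of the 10 chaperone genes in the 6 groups (horizontal axes). Bars are means of 2 libraries and dots are libraries; in SUM159 the 4 mitochondrial genes HSPD1, HSPE1, HSPA9 and TRAP1 sit lower in KD than in EV, while HSPA1B and DNAJB1 sit higher.

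With TRMT112 knockdown the mitochondrial chaperones fell in both lines, and with overexpression in BT549 they rose. All 4 mitochondrial members passed the test in each of these 3 comparisons, where 16.5% of all genes were called lower in MDA-MB-231 KD, 31.4% lower in SUM159 KD and 35.6% higher in BT549 OE. The calls of TRAP1 in MDA-MB-231 and of HSPE1 in SUM159 were lost under several other settings, given with those genes. Where transcripts were tested as listed, the value given for a member is that of its most abundant transcript only. The cytosolic members did not move as a block. HSPA8, HSP90AA1 and HSP90AB1 fell in both knockdowns, whereas HSPA1B and DNAJB1 rose in SUM159 KD and fell in BT549 OE.

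In MDA-MB-231 KD, 8 of 10 members were called lower and 0 higher (edgeR quasi-likelihood test, Benjamini-Hochberg adjusted p under 0.05), against 16.5% of all tested genes lower, 21.2% higher and 37.7% in either direction. In SUM159 KD, 7 were called lower and 3 higher, against 31.4% and 28.6% of all genes, 60.1% together. In BT549 OE, 5 were called higher and 4 lower, against 35.6% and 35.0%, 70.6% together. These counts take HSPA1A and HSPA1B as 2 members, although the split between these near-identical copies is uncertain. HSPA1A is among the 8 called lower in MDA-MB-231 KD, where the sum of both copies was not called. The members' median log2 fold change was -0.24, -0.63 and 0.14 in these comparisons, beside 0, 0 and 0.021 over all genes. The 2 libraries of each group did not overlap for 8, 10 and 10 members, where 66.0%, 76.7% and 82.9% of all genes did not overlap. With backgrounds this high in SUM159 and BT549, a call alone does not set a member apart, and the size of each change is given below.

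**Figure D2:**
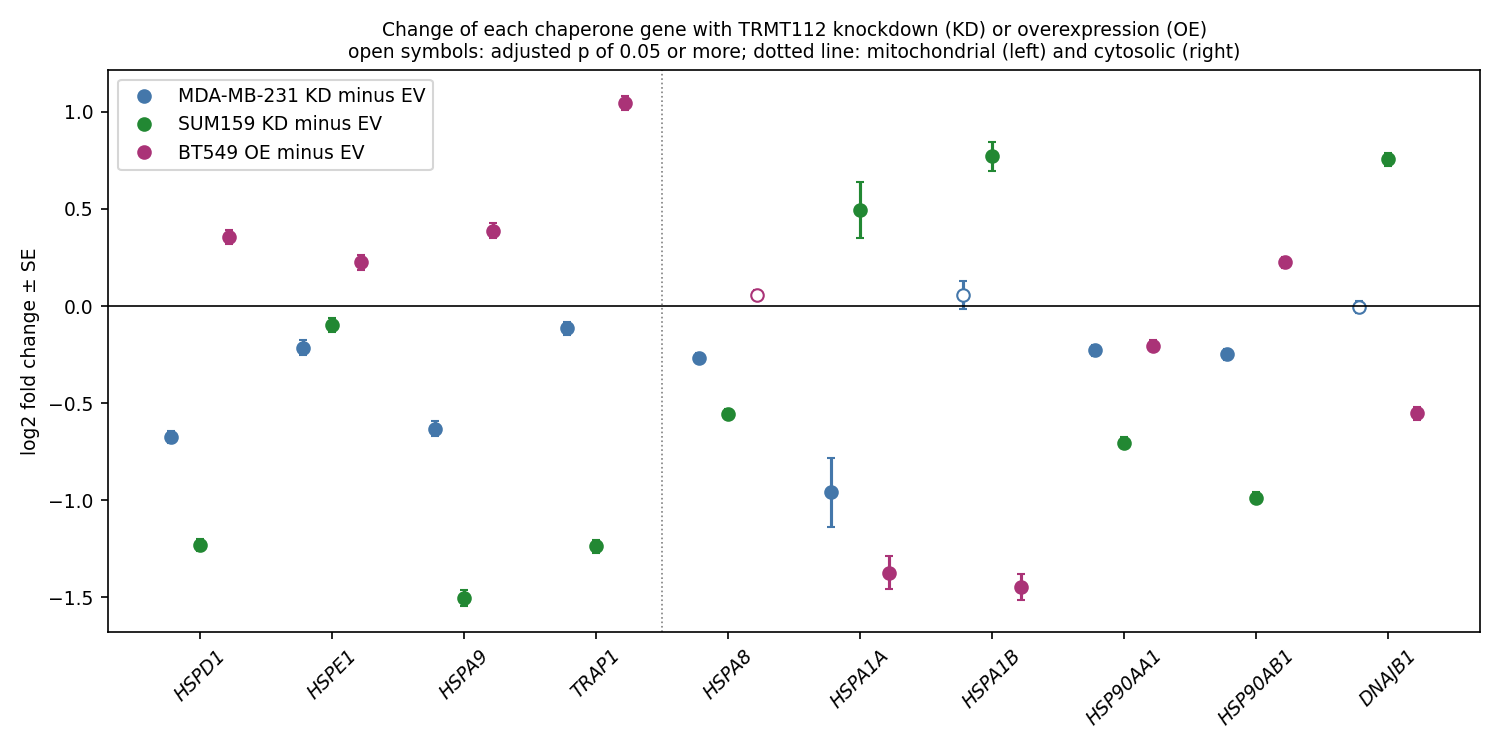
Log2 fold change (vertical axis, points with SE from the edgeR fit) of the 10 genes (horizontal axis) for MDA-MB-231 KD, SUM159 KD and BT549 OE, each against its EV group. The mitochondrial genes left of the dotted line are below 0 in both knockdowns and above 0 in BT549 OE; open symbols did not pass the test.

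HSPD1, the chaperonin that folds proteins imported into the mitochondrial matrix, had 9516 and 9405 normalized counts in MDA-MB-231 EV and 5888 and 5972 in KD. In SUM159 it had 12747 and 12995 in EV and 5391 and 5575 in KD, and in BT549 2891 and 2780.4 in EV and 3677 and 3570.1 in OE. The libraries of EV and KD or OE were well apart in every line, and the SUM159 KD libraries held fewer HSPD1 counts than the MDA-MB-231 KD libraries although SUM159 EV had started higher. The change was a log2 fold of -0.67 (SE 0.031, adjusted p = 8.07e-14) in MDA-MB-231, -1.23 (SE 0.031, adjusted p = 9.43e-20) in SUM159 and 0.35 (SE 0.036, adjusted p = 4.97e-09) in BT549. Expressed as percentages, HSPD1 fell by 37.3% in MDA-MB-231 and by 57.4% in SUM159, and it rose by 27.8% in BT549.

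HSPE1, the co-chaperonin that caps the HSPD1 barrel, changed far less than HSPD1 in both knockdowns and somewhat less in BT549 OE. It had 4802 and 5022 normalized counts in MDA-MB-231 EV and 4236 and 4230.5 in KD, 10853 and 11296 in SUM159 EV and 9922 and 10754 in KD, and 5223 and 5150.1 in BT549 EV and 6074 and 6047 in OE. The 2 SUM159 KD libraries were farther from each other than the higher of them was from the lower EV library. The log2 fold change was -0.21 (SE 0.038, adjusted p = 7.85e-05) in MDA-MB-231, -0.10 (SE 0.035, adjusted p = 0.0170) in SUM159 and 0.22 (SE 0.038, adjusted p = 1.18e-05) in BT549. The SUM159 call was lost with median-ratio size factors, at -0.044 and an adjusted p of 0.278, with DESeq2 (-0.044, adjusted p = 0.307), among genes averaging 50 or more counts (-0.073, adjusted p = 0.0543), with transcripts as listed (-0.10, adjusted p = 0.175), and without SUM159 EV replicate 2 (-0.074, adjusted p = 0.164) or KD replicate 1 (-0.044, adjusted p = 0.329). The HSPE1-MOB4 readthrough gene, which overlaps HSPE1 on the same strand, held 46.4 to 143.6 normalized counts. The annotated HSPD1 locus covers HSPE1 and part of MOB4 (1288 to 2930.4 normalized counts) on the opposite strand, and the sources differ on whether the library kit kept strand, so reads shared by these genes cannot be told apart in the values of HSPD1, HSPE1 or their ratio.

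The ratio of the chaperonin to its lid differed between groups. On the log2 scale, HSPD1 over HSPE1 stood at 0.99 and 0.91 in control MDA-MB-231 cells and 0.47 and 0.50 after knockdown. SUM159 controls gave 0.23 and 0.20 and knockdowns -0.88 and -0.95, so that HSPD1 went from 1.16 times the HSPE1 counts to 0.531 times. BT549 controls gave -0.85 and -0.89 and OE libraries -0.72 and -0.76. Both knockdowns lay below their controls in both libraries, by 0.46 and 1.13 on the log2 scale, and BT549 OE lay above its control by 0.13. Per kilobase of transcript HSPE1 exceeded HSPD1 in all 6 groups, from 2.10 times in MDA-MB-231 EV to 7.63 times in SUM159 KD. With 2 libraries against 2, an exact permutation test of a ratio cannot give a p below 0.333, so the ratios are described without a test.

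HSPA9, the HSP70 that pulls precursor proteins into the matrix and folds them, had 4315 and 4251 normalized counts in MDA-MB-231 EV and 2773 and 2756 in KD. It had 5883 and 5888 in SUM159 EV and 1966 and 2178 in KD, and 4444 and 4685 in BT549 EV and 5998 and 5937 in OE. SUM159 KD was its lowest group. BT549 OE and SUM159 EV were the highest on this scale and differed little, while on the length-scaled TPM scale SUM159 EV was above BT549 OE (means of 176 and 148). The log2 fold change was -0.63 (SE 0.040, adjusted p = 2.29e-11) in MDA-MB-231, -1.50 (SE 0.041, adjusted p = 4.20e-19) in SUM159 and 0.39 (SE 0.039, adjusted p = 4.44e-09) in BT549. HSPA9 fell by 64.7% in SUM159, the largest drop of any member in either knockdown. HSPA9 counts were split over HSPA9-206, with 42.7% to 55.1%, and HSPA9-222, a transcript with no annotated coding region, with 30.2% to 34.4%. Both fell in SUM159 KD, with log2 fold changes of -1.79 (adjusted p = 1.64e-07) and -1.46 (adjusted p = 4.15e-06) in the fit over transcripts.

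The ratio of HSPA9 to HSPD1 was higher in BT549 than in both other lines, and close between MDA-MB-231 EV and SUM159 EV. Within SUM159 it changed by -0.28 on the log2 scale with KD. Its log2 value was -1.14 and -1.15 in MDA-MB-231 EV and -1.09 and -1.12 in KD, -1.12 and -1.14 in SUM159 EV and -1.46 and -1.36 in KD, and 0.62 and 0.75 in BT549 EV and 0.71 and 0.73 in OE. HSPA9 exceeded HSPD1 in BT549 alone of the 3 lines, and the ratio also held per kilobase, at 1.42 times in BT549 EV.

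TRAP1, the HSP90 of the mitochondrial matrix, had 6796 and 6751 normalized counts in MDA-MB-231 EV and 6371 and 6134 in KD. It had 9884 and 10261 in SUM159 EV and 4248 and 4292 in KD, and 2719 and 2718 in BT549 EV and 5755 and 5474 in OE. TRAP1 was 2.07 times its control in BT549 OE and fell by 57.6% in SUM159 KD, but in MDA-MB-231 the groups were close. The log2 fold change was -0.12 (SE 0.033, adjusted p = 0.00714) in MDA-MB-231, -1.24 (SE 0.033, adjusted p = 3.49e-19) in SUM159 and 1.05 (SE 0.036, adjusted p = 1.22e-17) in BT549. The MDA-MB-231 call was lost without KD replicate 2, at -0.086 and an adjusted p of 0.128, and when transcripts were tested as listed (adjusted p = 0.0950).

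HSPA8, the constitutive cytosolic HSP70, fell in both knockdowns, by 16.8% in MDA-MB-231 and 31.9% in SUM159. It had 11969 and 12002 normalized counts in MDA-MB-231 EV and 9879.9 and 10055 in KD, 13812 and 14006 in SUM159 EV and 9461 and 9470.4 in KD, and 13753 and 13584 in BT549 EV and 14302 and 14148 in OE. The log2 fold change was -0.27 (SE 0.026, adjusted p = 2.21e-08) in MDA-MB-231 and -0.56 (SE 0.026, adjusted p = 8.05e-15) in SUM159. In BT549 it was 0.058 (SE 0.026, adjusted p = 0.0511), which missed the threshold. It passed with library size alone (0.078, adjusted p = 0.00749), among genes averaging 50 or more counts (0.085, adjusted p = 0.00426) and in DESeq2 (0.052, adjusted p = 0.0498). With transcripts as listed, the most abundant one, HSPA8-224, gave the other sign (-0.036, adjusted p = 0.300). That transcript held 93.9% of HSPA8 counts in BT549 EV and 87.7% in OE. No direction is given for the gene. A minor transcript, HSPA8-222, held 37.4 and 22.9 counts in the BT549 EV libraries and 224 and 340.3 in OE, a log2 fold change of 3.27 (SE 0.47, adjusted p = 0.000593) in a fit over transcripts. It was named after its values were seen.

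HSPA1A and HSPA1B, the stress-inducible HSP70 genes, were highest in BT549 EV. In BT549 OE, HSPA1A was still above both other lines, whereas HSPA1B overlapped with MDA-MB-231. HSPA1B had 788 and 847 normalized counts in MDA-MB-231 EV and 870.3 and 832 in KD, 653 and 674 in SUM159 EV and 1181 and 1086 in KD, and 2125 and 2169 in BT549 EV and 859 and 714 in OE. HSPA1A had 149 and 105 in MDA-MB-231 EV and 65.6 and 64.6 in KD, 117 and 151 in SUM159 EV and 187 and 191 in KD, and 1926 and 1903 in BT549 EV and 697 and 782 in OE. In BT549 both copies dropped to well under their control level. For HSPA1B the log2 fold change was 0.059 (SE 0.073, adjusted p = 0.582) in MDA-MB-231, 0.77 (SE 0.073, adjusted p = 2.60e-09) in SUM159 and -1.45 (SE 0.069, adjusted p = 4.88e-15) in BT549. For HSPA1A it was -0.96 (SE 0.18, adjusted p = 0.000145), 0.50 (SE 0.14, adjusted p = 0.00459) and -1.37 (SE 0.085, adjusted p = 7.03e-13). The SUM159 call of HSPA1A was lost with transcripts as listed (0.31, edgeR adjusted p = 0.430) and without EV replicate 1 (0.32).

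Summing the copies removed the uncertain split between them. Transcripts without a match in the annotation were left out, and further copies of these genes among them were not looked for. Levels of the pair, its ratio to HSPA8 and its differences between lines carry that limit. The pair had 937 and 952 normalized counts in MDA-MB-231 EV and 936 and 897 in KD, 770.1 and 824 in SUM159 EV and 1367 and 1277 in KD, and 4051 and 4073 in BT549 EV and 1556 and 1496 in OE. The pair did not pass the test in MDA-MB-231, at a log2 fold change of -0.043 (SE 0.056, adjusted p = 0.606), so the fall of HSPA1A there is not seen in the sum, most of which was HSPA1B. It rose in SUM159 by 0.73 (SE 0.056, adjusted p = 6.13e-11) and in BT549 OE fell to 0.376 times its control, a log2 fold change of -1.41 (SE 0.047, adjusted p = 6.11e-18). Within MDA-MB-231 EV, HSPA1B held 6.54 times the counts of HSPA1A, against 1.12 times in BT549 EV. An unnamed long non-coding gene (ENSG00000285565) that overlaps HSPA1B on the same strand held 0 to 81.9 normalized counts.

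Relative to the constitutive HSPA8, the inducible pair shifted in opposite directions. The log2 ratio of the pair to HSPA8 was -3.68 and -3.66 in MDA-MB-231 EV and -3.40 and -3.49 in KD, -4.16 and -4.09 in SUM159 EV and -2.79 and -2.89 in KD, and -1.76 and -1.74 in BT549 EV and -3.20 and -3.24 in OE. HSPA8 counts thus went from 17.5 to 7.16 times those of the pair in SUM159, and from 3.37 to 9.32 times in BT549. The libraries of each pair of groups were apart in all 3 lines.

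**Figure D3:**
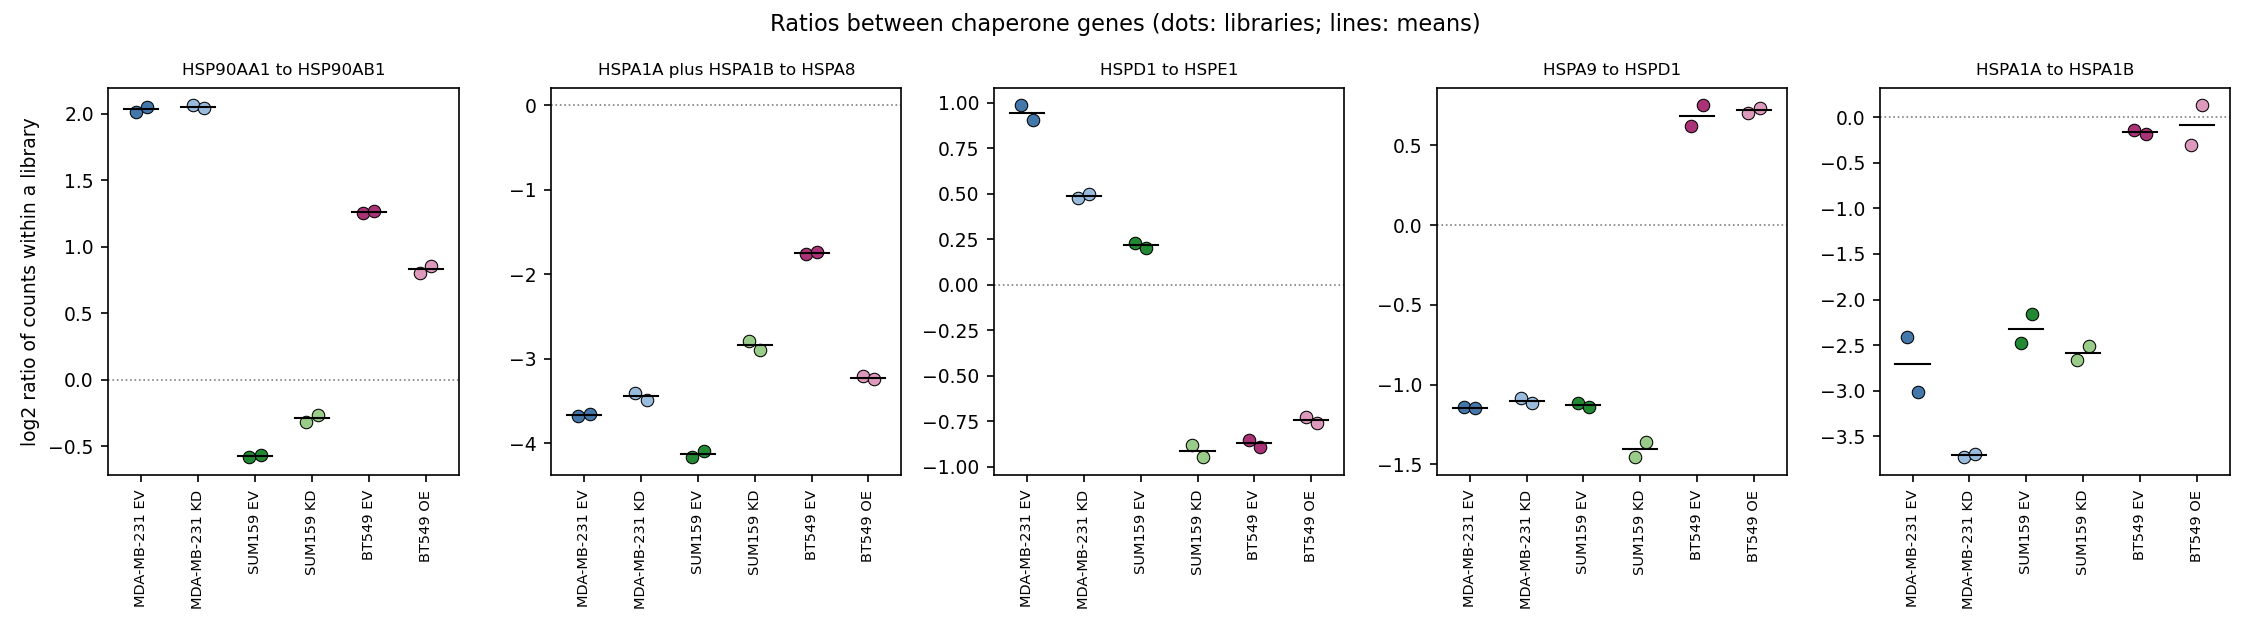
Log2 ratio of counts within a library (vertical axes) for 5 pairs of chaperone genes in the 6 groups (horizontal axes), with dots for libraries and lines for means. The ratio of HSPD1 to HSPE1 is lower in both knockdowns than in their controls, and the ratio of HSPA1A plus HSPA1B to HSPA8 is higher in SUM159 KD and lower in BT549 OE.

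HSP90AA1, the inducible cytosolic HSP90, fell in all 3 comparisons. It had 23964 and 24071 normalized counts in MDA-MB-231 EV and 20353 and 20649.5 in KD, 15514 and 15422 in SUM159 EV and 9266 and 9733 in KD, and 20483 and 20488 in BT549 EV and 17323 and 18238 in OE. The log2 fold change was -0.23 (SE 0.028, adjusted p = 6.42e-07) in MDA-MB-231, -0.70 (SE 0.029, adjusted p = 8.21e-16) in SUM159 and -0.20 (SE 0.028, adjusted p = 8.38e-07) in BT549. The main transcript HSP90AA1-201 held 92.3% to 98.3% of the counts. Another protein-coding transcript, HSP90AA1-202, went the other way in a fit over transcripts, with a log2 fold change of 0.70 (SE 0.18, adjusted p = 0.0251) in SUM159 KD, where HSP90AA1-201 changed by -0.78, and of 0.84 (SE 0.17, adjusted p = 0.00617) in BT549 OE, where HSP90AA1-201 changed by -0.23.

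HSP90AB1, the constitutive cytosolic HSP90, had 5941 and 5791 normalized counts in MDA-MB-231 EV and 4860.3 and 5009 in KD. It had 23243 and 22794 in SUM159 EV and 11545 and 11685 in KD, and 8567 and 8515 in BT549 EV and 9913 and 10062 in OE. SUM159 EV stood far above every other group, and SUM159 KD was still above both other lines. The log2 fold change was -0.25 (SE 0.030, adjusted p = 4.16e-07) in MDA-MB-231, -0.99 (SE 0.027, adjusted p = 4.67e-19) in SUM159 and 0.23 (SE 0.028, adjusted p = 1.82e-07) in BT549. In BT549 OE the cytosolic HSP90 genes thus moved in opposite directions. Their log2 ratio, HSP90AA1 to HSP90AB1, was 2.01 and 2.06 in MDA-MB-231 EV and 2.07 and 2.04 in KD, and those groups overlapped. It was -0.58 and -0.56 in SUM159 EV and -0.32 and -0.26 in KD, and 1.26 and 1.27 in BT549 EV and 0.81 and 0.86 in OE. SUM159 alone of the 3 lines had more HSP90AB1 than HSP90AA1 counts, also per kilobase, where HSP90AB1 was 1.87 times HSP90AA1 in EV.

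DNAJB1, the inducible J-domain partner of cytosolic HSP70, had 6534 and 6727 normalized counts in MDA-MB-231 EV and 6756 and 6464 in KD. It had 3737 and 3693 in SUM159 EV and 6336 and 6216 in KD, and 8341 and 8164 in BT549 EV and 5654 and 5597 in OE. The MDA-MB-231 groups overlapped, and the log2 fold change there was -0.0046 (SE 0.031, adjusted p = 0.957), although scaling by library size alone gave -0.095 (adjusted p = 0.0156). It rose by 0.76 (SE 0.033, adjusted p = 2.24e-15) in SUM159, and in BT549 OE its log2 fold change was -0.55 (SE 0.032, adjusted p = 2.07e-13). In sign DNAJB1 matched the HSPA1A plus HSPA1B pair in SUM159 and BT549. TECR, on the opposite strand of the annotated DNAJB1 locus, held 2995 to 8243 normalized counts, and the sources differ on whether the library kit kept strand, so shared reads cannot be told apart.

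The knockdown effects were also set against each other in the same fit. For 9 of 10 members the MDA-MB-231 effect differed from the SUM159 effect, 6 with a higher and 3 with a lower value in MDA-MB-231, against 27.7% of all genes higher and 23.2% lower, 50.9% together. HSPD1, HSPA9, TRAP1, HSPA8, HSP90AA1 and HSP90AB1 fell more in SUM159, with differences from 0.29 for HSPA8 (SE 0.037, adjusted p = 4.62e-07) to 1.12 for TRAP1 (SE 0.047, adjusted p = 2.66e-15). HSPA1A, HSPA1B and DNAJB1, which rose in SUM159 KD, gave differences of -1.45, -0.71 and -0.76. HSPE1 had a difference of -0.12 (SE 0.051, adjusted p = 0.0641), which missed the threshold. It passed with median-ratio size factors (-0.15, edgeR adjusted p = 0.0169), with library size alone (-0.17) and in DESeq2 (-0.15). It also passed among genes averaging 50 or more counts (-0.16) and with the replicate number as a block (-0.11). Without MDA-MB-231 EV replicate 1 it was -0.15, and without SUM159 KD replicate 1 it was -0.17. TRMT112 itself fell more in MDA-MB-231, at a log2 fold change of -1.23, than in SUM159, at -0.76, while 6 of the members fell more in SUM159.

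Summed over the 10 genes, the share of all gene counts was 0.348% and 0.350% in MDA-MB-231 EV and 0.271% and 0.273% in KD. SUM159 controls gave 0.419% and 0.422% and knockdowns 0.251% and 0.260%, and BT549 gave 0.264% and 0.263% in EV and 0.265% and 0.270% in OE. The knockdowns thus lowered the summed share and the BT549 groups were close. Beneath the flat BT549 sum, the mitochondrial members went from 0.0572% and 0.0575% to 0.0810% and 0.0806%, and the cytosolic members from 0.207% and 0.206% to 0.184% and 0.190%.

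Between genes, levels were compared on a scale that divides counts by transcript length and by the length-scaled total of the library (TPM). HSPE1 had the highest mean in all 6 groups, from 611 in BT549 EV to 1496 in SUM159 EV. HSP90AA1 came next in MDA-MB-231 EV (643) and HSP90AB1 in SUM159 EV (676). HSPA1A had the lowest mean in 5 groups, from 2.2 in MDA-MB-231 KD to 52.6 in BT549 EV, and in BT549 OE it had 20.5 against 20.3 for HSPA1B.

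**Figure D4:**
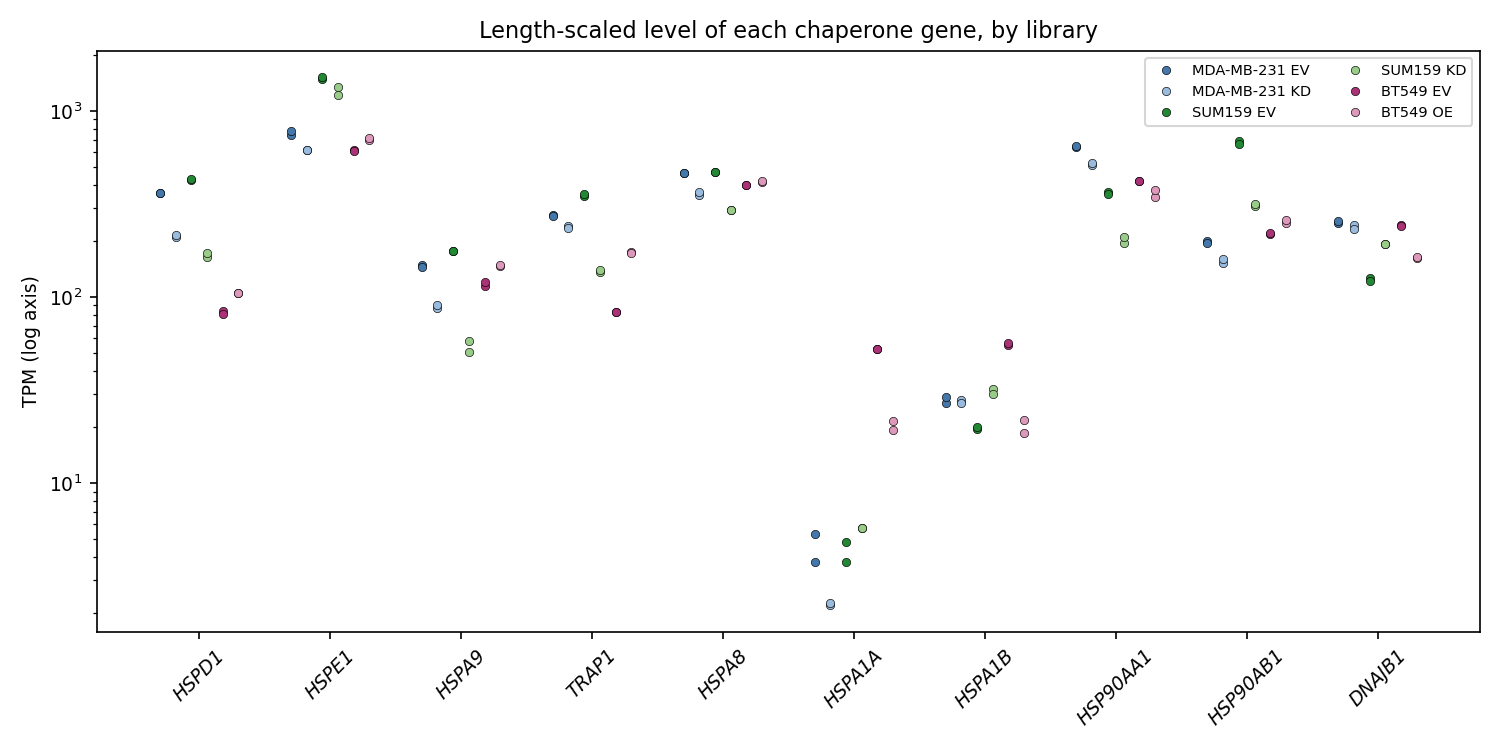
TPM, the length-scaled level (vertical axis, log scale) of the 10 genes (horizontal axis), with a dot for each library coloured by group. HSPE1 is highest in all 6 groups, and HSPA1A spans from 2.2 (mean of MDA-MB-231 KD) to 52.6 (mean of BT549 EV).

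Without manipulation of TRMT112 the lines differed in most members. SUM159 EV exceeded MDA-MB-231 EV for 6 members and was below it for 3, against 39.2% and 36.4% of all genes, 75.7% together. BT549 EV exceeded MDA-MB-231 EV for 6 and was below it for 3 (39.1% and 40.4%, 79.5% together), and it exceeded SUM159 EV for 4 and was below it for 5 (37.7% and 40.7%, 78.4% together). The groups did not overlap for 9, 10 and 10 members, where 86.4%, 88.2% and 87.7% of all genes did not overlap. HSP90AB1 stood out in SUM159, at a log2 difference of 1.97 from MDA-MB-231 (SE 0.028, adjusted p = 5.18e-25), as did HSPE1 at 1.17 (SE 0.036, adjusted p = 8.54e-19). Of the 4 mitochondrial members, 2 were lower in BT549 than in MDA-MB-231, 1 was higher and 1 was not called. HSPD1 was lower at -1.74 (SE 0.033, adjusted p = 5.43e-23) and TRAP1 at -1.32 (SE 0.036, adjusted p = 4.23e-20), HSPA9 was higher at 0.092 (SE 0.039, adjusted p = 0.0360) and HSPE1 gave 0.078 (SE 0.038, adjusted p = 0.0609). The HSPA1A plus HSPA1B pair was high there, at 2.10 (SE 0.049, adjusted p = 2.48e-21). With scaling by library size alone the median of all genes moved by -0.34 in BT549 against MDA-MB-231 and by -0.27 against SUM159, and the small positive differences of HSPA9 (0.092) and HSPA8 (0.19) from MDA-MB-231 then turned negative, to -0.22 and -0.13. The call of HSPA9 was also lost among genes averaging 50 or more counts (0.050, adjusted p = 0.221) and without MDA-MB-231 EV replicate 1 or 2 or BT549 EV replicate 2. HSPE1 was called higher with median-ratio size factors (0.095, edgeR adjusted p = 0.0244) and in DESeq2 (0.095, adjusted p = 0.0215). It was also called higher with transcripts as listed (0.12, edgeR adjusted p = 0.0426) and with the replicate number as a block (0.079). Library size alone gave a lower HSPE1 (-0.24, edgeR adjusted p = 4.34e-06).

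Ordered over the 6 groups, HSPD1 rose from BT549 EV through BT549 OE, SUM159 KD, MDA-MB-231 KD and MDA-MB-231 EV to SUM159 EV. DNAJB1 ran from SUM159 EV through BT549 OE, SUM159 KD and the MDA-MB-231 groups to BT549 EV. Neighbouring groups overlapped only for HSPA1A (MDA-MB-231 EV and SUM159 EV), for HSPA1B (BT549 OE, MDA-MB-231 EV and MDA-MB-231 KD), for HSP90AA1 (BT549 EV and MDA-MB-231 KD) and for DNAJB1 (MDA-MB-231 KD and EV). The genes closest in pattern were found by the root mean square difference of 6 group means of log2 depth-scaled counts (CPM), each gene centred on its own mean, among 12580 genes. For HSPD1 these were OSGEPL1 (0.164), POLR1B (0.167) and LRPPRC (0.187), and of the other members TRAP1 came closest, at rank 140, with HSPE1 at rank 2996. For HSPA9 they were BMERB1 (0.149), HSPA4 (0.192) and MCM6 (0.194). For HSPA8 they were POLR3A (0.071), ILVBL (0.080) and MRPL39 (0.082), for HSP90AA1 TNKS2 (0.098), GTF2F1 (0.107) and SPTLC1 (0.108), and for the HSPA1A plus HSPA1B pair CLTA (0.141), RIC1 (0.147) and HSF4 (0.156).

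The rest of the chaperone network was read from 8 lists of 85 genes. Their counts stand against shares over all genes of 21.2% higher and 16.5% lower in MDA-MB-231 KD, 28.6% and 31.4% in SUM159 KD, and 35.6% and 35.0% in BT549 OE. Of 17 mitochondrial co-chaperones, import motor parts and proteases, 7 fell and 2 rose in MDA-MB-231 KD, 10 fell and 4 rose in SUM159 KD, and 13 rose and 2 fell in BT549 OE, that is 41.2% lower, 58.8% lower and 76.5% higher, with median log2 fold changes of -0.12, -0.35 and 0.32, beside 0, 0 and 0.021 over all genes. LONP1, the matrix protease, had 11625 and 11292 normalized counts in EV and 7937 and 7709 in KD in MDA-MB-231, which is -0.55 on the log2 scale, and SUM159 gave -0.89. TIMM44, which tethers HSPA9 to the import channel, changed by -0.36, -0.84 and 0.67 on the log2 scale. DNAJA3, the J-domain partner of HSPA9, had 2729.7 and 2724 normalized counts in EV and 6530.4 and 6351 in OE in BT549, a log2 fold change of 1.24, and PAM16, a regulator of the import motor, rose there by 1.51. SPG7, a protease subunit of the inner membrane, rose in all 3 comparisons, by 0.37, 0.46 and 0.70.

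Of 14 genes of the cytosolic chaperonin TRiC and of prefoldin, which fold actin and tubulin, 6 fell and 1 rose in MDA-MB-231 KD, 9 fell and 5 rose in SUM159 KD, and 9 rose and 3 fell in BT549 OE, that is 42.9% lower, 64.3% lower and 64.3% higher, against 16.5%, 31.4% and 35.6% of all genes, with medians of -0.07, -0.68 and 0.22. CCT7 had 11320.0 and 11241 normalized counts in EV and 3742 and 3726 in KD in SUM159, a log2 fold change of -1.60, and CCT3 changed by -1.45 there. CCT5 changed by -1.00 in SUM159 and by 0.81 in BT549, while PFDN1, a prefoldin subunit, rose by 0.64 and 0.85.

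Of 8 other HSP70 and HSP110 genes, 3 fell in MDA-MB-231 KD and 4 in SUM159 KD with 0 rising, and 2 rose and 4 fell in BT549 OE, that is 37.5% and 50.0% lower in the knockdowns, against 16.5% and 31.4% of all genes, with medians of -0.33, -0.56 and -0.10. HSPA4, an exchange factor for HSP70 and one of the genes nearest to HSPA9 in pattern, had 1978 and 2006 normalized counts in EV and 931 and 855 in KD in SUM159 and changed by -0.34, -1.16 and 0.40 in the 3 comparisons. HSPA13, which is an HSP70 of the endoplasmic reticulum and not of the cytosol, was among the called genes in each comparison and changed by -0.40, -1.86 and 0.33. HSPA4L changed by -1.26 in SUM159 and -2.43 in BT549.

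Of 15 HSP90 co-chaperones, 5 rose and 2 fell in MDA-MB-231 KD, 1 rose and 11 fell in SUM159 KD, and 7 rose and 7 fell in BT549 OE. In MDA-MB-231 these were 33.3% higher and 13.3% lower, against 21.2% and 16.5% of all genes, and in SUM159 73.3% lower, against 31.4%, with medians of 0.01, -0.31 and 0.09. FKBP4, an immunophilin of steroid receptor complexes, rose by 0.44 in MDA-MB-231 and changed by -1.04 in SUM159 and -1.04 in BT549. STIP1, which hands clients from HSP70 to HSP90, had 6521 and 6819 normalized counts in EV and 3099 and 3127 in KD in SUM159. FKBP5 had 1659 and 1782 normalized counts in EV and 233 and 180.0 in OE in BT549, and STUB1, a ubiquitin ligase that binds both chaperones, had 2595 and 2479 normalized counts in EV and 8016 and 7439 in OE.

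Of 11 other cytosolic J-domain proteins, 3 rose and 2 fell in MDA-MB-231 KD, 6 rose and 4 fell in SUM159 KD, and 6 rose and 3 fell in BT549 OE. In MDA-MB-231 these were 27.3% and 18.2%, close to the 21.2% and 16.5% of all genes, and in BT549 54.5% and 27.3%, against 35.6% and 35.0%, with medians of 0.08, 0.17 and 0.29. DNAJA1 had 12209.5 and 12598 normalized counts in EV and 5709 and 5765 in OE in BT549, a log2 fold change of -1.11, whereas DNAJB2 rose there by 1.48. Of 6 BAG-family and other exchange factors, 2 rose and 1 fell, 1 rose and 2 fell, and 2 rose and 4 fell, with medians of -0.0019, 0.0013 and -0.35. That is 33.3% higher and 16.7% lower in MDA-MB-231, 16.7% and 33.3% in SUM159, and 33.3% and 66.7% in BT549. The shares over all genes were 21.2% and 16.5%, 28.6% and 31.4%, and 35.6% and 35.0%. BAG3, a stress-inducible partner of HSP70, rose by 0.40 in MDA-MB-231 and changed by -0.74 in BT549. BAG1 changed by -0.91, 0.45 and -0.53.

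Of 8 small heat shock proteins, 6 were tested, and 1, 2 and 5 rose in the 3 comparisons with 0 falling. That is 16.7%, 33.3% and 83.3% higher, against 21.2%, 28.6% and 35.6% of all genes. HSPB1, the most abundant of them, had 16192 and 16412 normalized counts in EV and 21692 and 21560.0 in KD in MDA-MB-231 and 13834 and 14473 normalized counts in EV and 26101 and 24869 in KD in SUM159, log2 fold changes of 0.41 and 0.85. In BT549, HSPB6 had 10.9 and 5.54 normalized counts in EV and 7634 and 7403 in OE. CRYAB had 4.38 and 5.54 normalized counts in EV and 298 and 259 in OE there. No median is given for this list, since several of its genes were at or near 0 in a group. Of 6 regulators, 3 fell and 0 rose in MDA-MB-231 KD, 2 rose and 2 fell in SUM159 KD, and 1 rose and 5 fell in BT549 OE, with medians of -0.14, 0.18 and -0.59. The share called lower was 50.0%, 33.3% and 83.3%, against 16.5%, 31.4% and 35.0% of all genes. The share called higher was 0%, 33.3% and 16.7%, against 21.2%, 28.6% and 35.6%. HSF1 rose by 0.42 in SUM159, where HSPA1B and DNAJB1 rose and HSPD1, HSPA8 and HSP90AA1 fell. A link between them was not tested. DDIT3, a factor of the mitochondrial and endoplasmic reticulum stress responses, fell in all 3, with log2 fold changes of -1.11, -2.00 and -0.84. ATF5, a factor of the mitochondrial unfolded protein response, changed by -0.70 in MDA-MB-231 and -1.27 in BT549, and its SUM159 value of -0.065 did not pass the test.

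**Figure D5:**
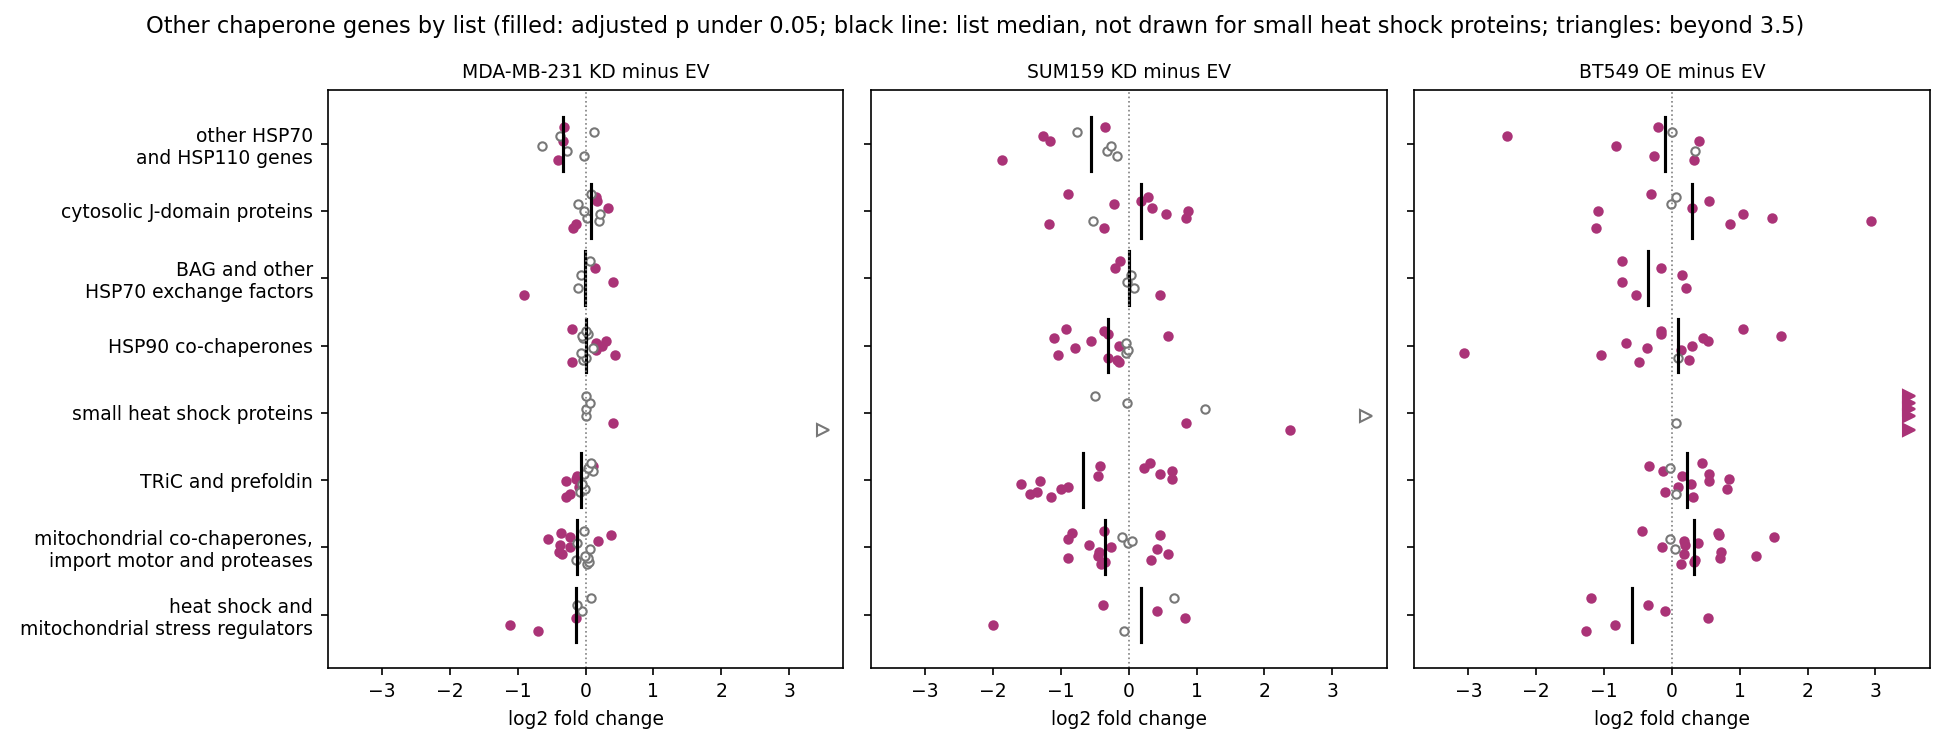
Log2 fold change (horizontal axes) of the genes of 8 chaperone lists (vertical axis) in MDA-MB-231 KD, SUM159 KD and BT549 OE, each against EV. Filled symbols passed the test, black lines are list medians and triangles mark values beyond 3.5; the mitochondrial co-chaperones lie mostly left of 0 in the knockdowns (medians -0.12 and -0.35) and right of 0 in BT549 OE (0.32).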

How the data were processed

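Polysome-associated RNA of 12 libraries, 2 in each of 6 groups, was measured by RNA-seq. The authors trimmed reads with Trimmomatic, aligned them with HISAT2 to GRCh38, removed duplicates with SAMtools and deposited estimated counts per transcript in 1 table; versions are not given in the sources used here. The labels describe an oligo(dT) library kit and the study's methods a stranded total RNA kit after ribosomal depletion, so the handling of strand is uncertain. Some cells of the deposited table held a missing mark in place of an expected count, in 5.08% of rows, and were taken as 0.

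Of 201932 transcripts, 79.6% were matched to GENCODE release 44, and these held over 99% of the counts of every library. Unmatched transcripts were not analysed here. Counts were summed by symbol, rounded, filtered with filterByExpr and scaled by TMM, and edgeR 4.0.16 (R 4.3.3) fitted 6 group means to 16538 genes with its quasi-likelihood test, 6 residual degrees of freedom and Benjamini-Hochberg adjustment over all genes. Normalized counts are scaled to the mean effective library size of 23907944. Libraries held 22954226 to 27434677 counts. The scripts were tested on simulated data. Alternatives were median-ratio (RLE) size factors, library size alone, DESeq2 1.42.0, no low-count filter, a stricter one (mean of 50 or more), the replicate number as block, each line alone, transcripts as listed, summed HSPA1A and HSPA1B, leaving out each library and ratios per kilobase. With transcripts as listed, a member's value is that of its most abundant transcript.

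The members and lists were chosen with earlier results of these data known. Named list genes were the 3 of smallest p per list and comparison, taken from called genes that averaged 50 or more counts and had no overlap between groups. Nearest patterns were the 3 genes of smallest root mean square difference. Same-numbered libraries of a line did not deviate together (Pearson's r over genes 0.02, -0.02 and 0), so the numbers were not used as pairs.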

Additional observations from a re-analysis of the deposited data

Results flagged for a closer look

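The effect of TRMT112 knockdown differed between MDA-MB-231 and SUM159 for 9 of the 10 chaperone genes, by the interaction term of the edgeR fit over all genes, where 50.9% of all genes also differed. As the log2 effect in MDA-MB-231 minus that in SUM159, the difference was 1.12 for TRAP1, 0.87 for HSPA9, 0.74 for HSP90AB1, 0.56 for HSPD1, 0.47 for HSP90AA1 and 0.29 for HSPA8, all of which fell more in SUM159. It was -1.45 for HSPA1A, -0.76 for DNAJB1 and -0.71 for HSPA1B, which rose in SUM159. The values of HSPA1A and HSPA1B carry the uncertain split between near-identical copies, and their sum gave -0.77.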

How the results depend on the processing

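Of the member log2 values recomputed under the alternatives, 916 kept direction and side of the threshold, 17 gained a call and 15 lost one. Another 18 changed sign, of which 13 were called neither way (8 of them in the knockdown and overexpression comparisons, for DNAJB1 and HSPA1B in MDA-MB-231 and HSPA8 in BT549). The 5 with a call were in comparisons of control cells: BT549 against MDA-MB-231 with library size alone gave -0.24 for HSPE1, -0.22 for HSPA9 and -0.13 for HSPA8, transcripts as listed gave -0.032 for HSPA9, and DESeq2 gave 0.053 for HSPA8 in BT549 against SUM159. With library size alone 3 members were then higher and 6 lower in BT549 than in MDA-MB-231, and over all genes 5099 were higher and 8196 lower, against 6463 and 6689 with TMM; in MDA-MB-231 KD it gave 2363 higher and 4082 lower, against 3505 and 2735. Per kilobase the log2 ratio of HSPD1 to HSPE1 was -1.07 in MDA-MB-231 EV, -1.53 in KD and -1.80 in SUM159 EV. The cause of these changes was not tested, beyond transcript length entering the last. With 2 libraries a group and 6 residual degrees of freedom, small changes such as those of HSPE1 and TRAP1 in single lines are at the limit of what these libraries resolve.

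With the replicate number as a block, HSPE1 gained a call in the difference of knockdown effects (-0.11, adjusted p = 0.0265, edgeR) and in BT549 against MDA-MB-231 (0.079, adjusted p = 0.0267), and no other member's call changed; the numbers did not pair the libraries.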
